A study of Homo sapiens with 2 samples.

Results

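To describe the proliferative programme of the human L-cell model, 44 genes of DNA replication and mitosis were followed in hNCI-H716 cells. This line comes from a human colorectal adenocarcinoma of the cecum, grows in suspension and was plated on Matrigel, a basement membrane matrix, before the experiment. After 24 h to attach, the cells received DMEM with 10% fetal bovine serum and glucose at 5.5 mM (low) or at 25 mM (high), and were kept so for 48 h. A single library of polyadenylated RNA stands for each concentration, made with a kit that does not mark strand. The 44 genes were taken as a named list from the 19989 genes in the deposited table, by gene name: 21 genes of S phase, from MCM2 to CCNE2, and 23 genes of G2 and M, from CCNA2 to FOXM1. All 44 had a value. Levels are in CPM, the count of a gene scaled to a library total common to all samples. There are no replicates, so every difference is one between 2 libraries and no p-value was computed. The 95% intervals given with CPM (Wilson) and with log2 ratios of high over low glucose (exact binomial) cover counting error only.

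In a dividing cell, origins of replication are licensed in G1, when CDC6 and CDT1 load the MCM2 to MCM7 helicase onto DNA. In S phase the helicase is joined by CDC45 and the GINS complex, polymerase alpha starts each strand, and PCNA holds the later polymerases on the template. Ribonucleotide reductase and thymidylate synthase supply the deoxynucleotides. Cyclin B with CDK1 then drives entry into mitosis, the spindle checkpoint delays anaphase, and the anaphase-promoting complex ends mitosis. S phase genes are classical targets of E2F factors, and many genes of G2 and M are controlled through the CHR promoter element and through CCAAT boxes, which bind NF-Y. In bulk RNA, a lower level per cell cannot be told apart from fewer cells in the phase concerned.

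Estimated totals were 21756979 counts for low and 19456225 for high glucose, so that 3 counts, taken as the limit for a count of 0, correspond to 0.138 and 0.154 CPM. Of the 11 markers chosen for L-cells and gut epithelium, GCG, CHGA, PCSK1, KRT8, KRT18, SCGN, CDX2 and VIL1 averaged 10 CPM or more. NEUROD1 had no value, and CDH1, which encodes E-cadherin, stood at 0.0582 CPM in low and 0.166 CPM in high glucose, or 1 and 3 counts, and EPCAM, another epithelial marker, at 3.37 and 3.502 CPM. Of the 11 markers of other cell types, 4 had no value, 5 averaged under 1 CPM, COL1A2 stood at 3.74 and 4.94 CPM, and ALB, the albumin gene, was high at 456 and 487 CPM. The summed CPM of these other-cell markers was 461 at low and 493 at high glucose, nearly all from ALB, and the part of other cell types in the results was not tested. The low CDH1 and EPCAM, the missing NEUROD1 and the high ALB thus go against the label of a gut epithelial L-cell, while the 8 markers above go with it, and the identity of the line was not tested.

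The promoters of the genes were examined first, since they show a difference between the S phase and the G2 and M genes that does not use expression. RefSeq promoter sequences on GRCh38.p14, each from 250 bases before to 50 bases after a gene's start, were matched for 18 of the 21 S phase genes (24 promoters) and 17 of the 23 G2 and M genes (19 promoters). Promoters of 1 gene with several starts can overlap. Both strands were searched for the CHR element TTTGAA, for the NF-Y element CCAAT, and for an E2F element (GCGGGAA or GCGCCAA or GCGCGAA). The last letters of GCGCCAA can overlap a CCAAT box. The CHR element was present in 12 of 19 promoters of G2 and M genes (63.2%), in 1 of 24 promoters of S phase genes (4.17%) and in 15.2% of all 35116 promoters. An E2F element was present in 15 of 24 S phase promoters (62.5%), in 5 of 19 promoters of G2 and M genes (26.3%) and in 11.0% of all promoters. In genes averaging 10 CPM or more, the level of 43 of the 44 genes, an E2F element was in 17.6% of promoters and the CHR element in 10.6%. Counted by gene, the E2F element was in 14 of 18 S phase genes, in 4 of 17 genes of G2 and M (23.5%) and in 23.6% of genes averaging 10 CPM or more, so that the G2 and M share is at that background. The CCAAT box was common to both lists, with 17 of 19 promoters (89.5%) for G2 and M and 17 of 24 (70.8%) for S phase, against 34.6% of all promoters. Counted by gene, it was in 88.2% for G2 and M and 66.7% for S phase, against 44.7% of genes averaging 10 CPM or more. In genes, the CHR element was found in 11 of 17 for G2 and M and in 1 of 18 for S phase, where it was RRM1, against 13.9% of genes averaging 10 CPM or more. With only the bases before the start, the CHR element was in 9 of 19 promoters of G2 and M genes (47.4%), against 13.3% of all promoters. An E2F element was then in 12 of 24 S phase promoters (50%), against 9.32% of all promoters. The CHR share of S phase and the E2F share of G2 and M stayed as they were. A match of letters is a description of the sequence and not a measured binding site.

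The 160 bases before the start are given for 4 genes of G2 and M in which the CHR element lies at nearly the same distance from the start, which is why they were picked, and for 2 S phase genes with E2F elements, of which POLA1 is among the genes that differed most between the libraries. Sequences run 5′ to 3′ on the strand of the gene, and capitals mark CHR, CCAAT and E2F matches on either strand.
CCNB2 (chr15:59104986-59105145, plus strand): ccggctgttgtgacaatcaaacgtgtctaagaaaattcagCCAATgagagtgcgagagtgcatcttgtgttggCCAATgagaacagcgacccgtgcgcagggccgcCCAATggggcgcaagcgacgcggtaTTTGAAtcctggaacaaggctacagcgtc
PLK1 (chr16:23678729-23678888, plus strand): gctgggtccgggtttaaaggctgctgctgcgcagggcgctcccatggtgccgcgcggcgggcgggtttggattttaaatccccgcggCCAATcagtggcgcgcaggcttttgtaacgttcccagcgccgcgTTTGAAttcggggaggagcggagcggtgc
KIF11 (chr10:92592970-92593129, plus strand): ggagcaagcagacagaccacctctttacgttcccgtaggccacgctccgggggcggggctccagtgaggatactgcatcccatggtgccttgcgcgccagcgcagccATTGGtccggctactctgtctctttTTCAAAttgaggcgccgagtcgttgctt
MKI67 (chr10:128126424-128126583, minus strand): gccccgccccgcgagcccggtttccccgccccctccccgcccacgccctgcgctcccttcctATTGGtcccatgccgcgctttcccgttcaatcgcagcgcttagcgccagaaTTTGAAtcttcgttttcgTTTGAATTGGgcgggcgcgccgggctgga
POLA1 (chrX:24693758-24693917, plus strand): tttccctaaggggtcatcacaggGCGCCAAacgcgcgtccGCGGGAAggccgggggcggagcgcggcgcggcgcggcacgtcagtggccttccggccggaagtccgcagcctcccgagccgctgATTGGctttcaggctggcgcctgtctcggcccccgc
MCM6 (chr2:135876444-135876603, minus strand): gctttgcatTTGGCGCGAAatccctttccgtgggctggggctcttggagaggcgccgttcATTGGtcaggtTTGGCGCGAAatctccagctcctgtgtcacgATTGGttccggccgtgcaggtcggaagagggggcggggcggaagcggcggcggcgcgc
The CHR element began 29 bases before the start in CCNB2, PLK1 and MKI67 and 28 bases before it in KIF11, where it is on the other strand and reads TTCAAA. In the other genes of the list the distance varied: it was 23 bases in BUB1B, 65 and 178 in CDC20 and 151 and 194 in TOP2A. CDK1 has an earlier and a later start, and the element lay 161 bases before the earlier. It lay 13 and 69 bases before the later start and again after it. In MAD2L1, NUSAP1 and CENPF the element lay only after the start. In MKI67 a second copy lies 47 bases before the start, and the last base of the nearer copy is also the first base of a reversed CCAAT box. The reversed CCAAT box of KIF11 began 53 bases before the start, the nearest of 3 CCAAT boxes shown for CCNB2 began 54 bases before it, and that of PLK1 began 73 bases before it. MCM6 holds paired, overlapping E2F matches at 2 places, which began 151 and 148 bases and again 89 and 86 bases before the start.

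The replication and mitosis genes were strongly expressed. Together the 44 genes held 0.708% of all CPM at low and 0.739% at high glucose. The mean of the libraries ran from 6.60 CPM for CCNE1 to 518 CPM for MCM7, and 43 of 44 genes averaged 10 CPM or more. Their median level was 156 CPM in low and 163 CPM in high glucose, against 7.29 and 6.94 CPM over all 19989 genes. The counts behind these levels ranged from 128 for CCNE1 to 11300 for MCM7 in low glucose.

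**Figure D1:**
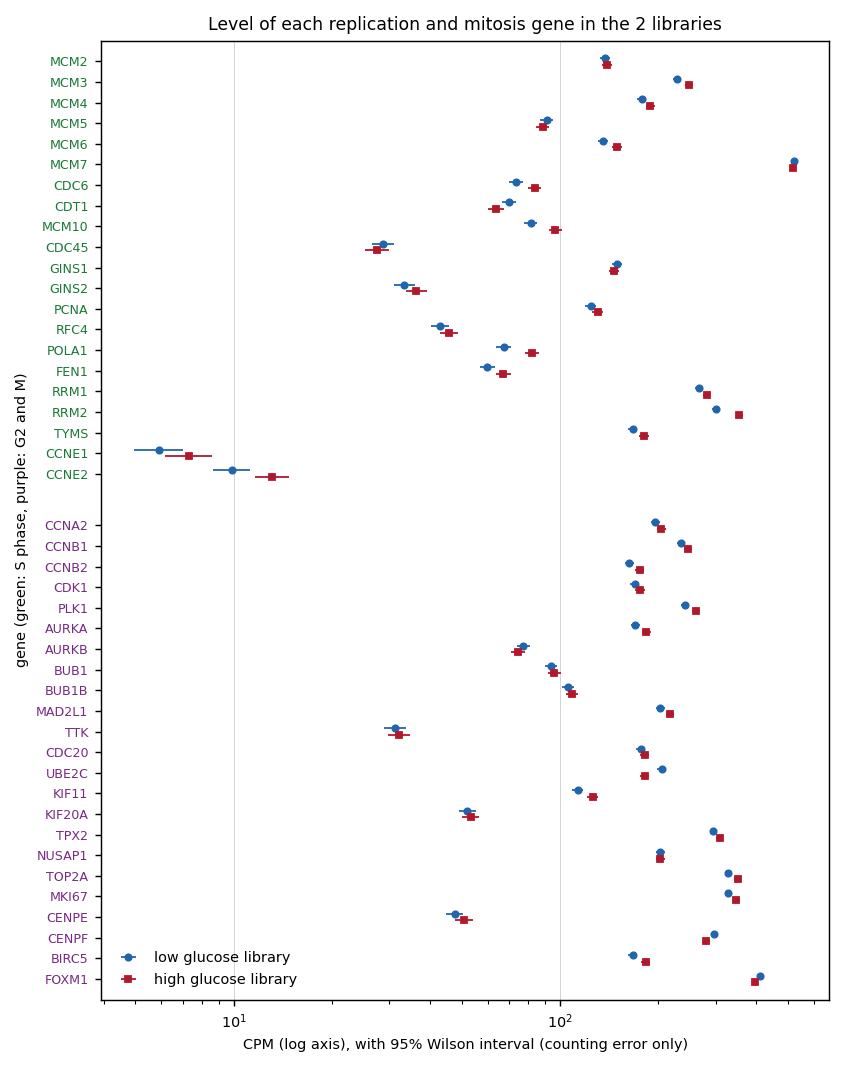
Level of each gene in CPM (log axis) in the low glucose library (blue circles) and the high glucose library (red squares), with 95% Wilson intervals for counting error. The points of a gene lie close together, and CCNE1 and CCNE2, at 5.90 to 13.1 CPM, sit far below the rest.

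To compare levels between genes, CPM was divided by the length of the merged exons of each gene, and the values that follow are means of the libraries in CPM per kb. Within the replicative helicase, whose 6 subunits assemble in equal numbers, the level ran from 12.2 for MCM5 over 26.3 for MCM4, 28.2 for MCM2, 34.6 for MCM6 and 65.4 for MCM3 to 118 for MCM7. MCM7 also hosts microRNAs in its introns and shares 8.9% of its exon bases with AP4M1 on the other strand. With the longest transcript in place of merged exons, MCM5 was still lowest, at 25.4, and MCM7 highest, at 168, but the order between them changed, with MCM6 and MCM2 at 38.2 and MCM4 at 43.9.

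Among the factors that load and activate the helicase, GINS1 was at 36.4 CPM per kb and its partner GINS2 at 10.7. CDC45 was the lowest of that group at 9.89, with CDC6 at 14.1, MCM10 at 16.3 and CDT1 at 20.0, but with the longest transcript GINS2, at 13.0, was below CDC45, at 13.5. The enzymes of deoxynucleotide supply lay close to each other, with 61.5 for RRM2, 65.6 for RRM1 (the small and large subunits of ribonucleotide reductase) and 70.4 for TYMS, the thymidylate synthase gene. PCNA, the sliding clamp, was at 86.6, whereas RFC4, a subunit of the clamp loader, was at 14.8 and POLA1, the catalytic subunit of polymerase alpha, at 11.8. With the longest transcript RFC4 was at 30.6 and PCNA at 93.8. The cyclin E genes were the lowest of the S phase list, at 2.59 for CCNE1 and 2.61 for CCNE2.

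In the G2 and M list, UBE2C, the E2 enzyme of the anaphase-promoting complex, was highest at 150 CPM per kb, followed by CCNB1 at 94.2 and CDC20, the activator of that complex, at 88.0. FOXM1, a transcription factor of the G2 and M programme, stood at 82.3 and TPX2, a spindle assembly factor, at 83.7. Cyclin B1 exceeded its partner kinase CDK1, at 43.95, but with the longest transcript CDK1 was at 88.7 and CCNB1 at 111. The lowest genes were CENPE, a kinetochore motor, at 5.21, TTK, the checkpoint kinase MPS1, at 6.92, and KIF20A, a motor of cytokinesis, at 13.3. Of the Aurora kinases, AURKA was at 60.4 and AURKB at 33.8, but with the longest transcript they were closer, at 78.7 and 60.4. With the longest transcript the levels of FOXM1 and PLK1, at 116 and 113, passed those of CCNB1 and CDC20, so that the order of the upper genes depended on the length used, and UBE2C remained highest.

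**Figure D2:**
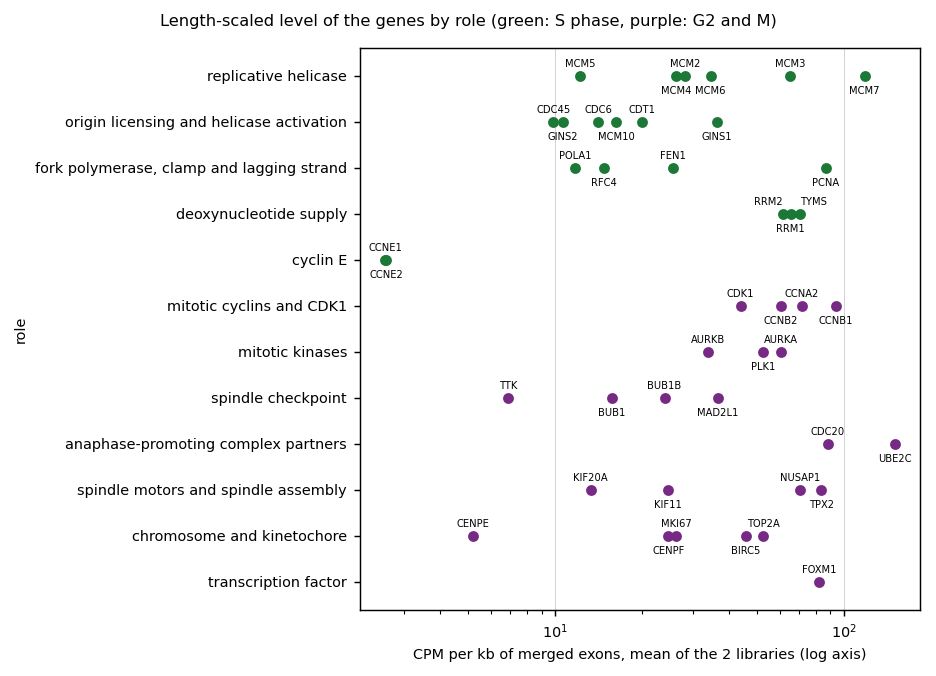
Level per length of each gene (CPM per kb of merged exons, mean of the libraries, log axis), with genes placed in rows by role and coloured by list. The helicase subunits spread from 12.2 to 118 CPM per kb, the deoxynucleotide genes fall between 61.5 and 70.4, and the cyclin E genes sit at 2.59 and 2.61.

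The glucose comparison asks whether the levels of these genes differed between the cultures. The differences were small and mostly in one direction: 34 of the 44 genes were higher in high glucose and 10 were lower, of which NUSAP1, at a log2 ratio of -0.001, changed sign with another scaling of the libraries, where 48.6% of the 13052 genes averaging 1 CPM or more were higher and 51.4% lower. The median log2 ratio was 0.12 for the S phase genes (middle 50% from 0.02 to 0.19) and 0.06 for the G2 and M genes (0.03 to 0.10), against -0.01 over all genes tested (-0.14 to 0.10). In the S phase list 16 genes were higher and 5 lower, and in the G2 and M list 18 were higher and 5 lower. The ratio was at least 1.2-fold for 3 genes, CCNE2, POLA1 and, with an interval that included 0, CCNE1, all higher in high glucose, where 6.43% of all genes tested were that much higher and 11.3% that much lower. No gene of the 44 was that much lower. The counting interval lay above 0 for 21 genes and below 0 for 4, against 15.8% and 15.9% of all genes tested. Deeply counted genes have narrow intervals, and among the 9345 genes averaging 10 CPM or more these shares were 20.4% and 18.0%. In those genes 51.9% were higher and 48.1% lower in high glucose, with 3.2% at least 1.2-fold higher and 4.82% at least 1.2-fold lower.

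Summed over the S phase list, the level was 2770 CPM in low glucose (exact Poisson interval 2748 to 2792) and 2950 CPM in high glucose (2926 to 2974), a log2 ratio of 0.09 (0.07 to 0.11). Over the G2 and M list it was 4309 CPM (4281 to 4337) and 4438 CPM (4409 to 4468), a log2 ratio of 0.04 (0.03 to 0.06). The G2 and M sum was 1.56 times the S phase sum in low glucose (1.54 to 1.57) and 1.505 times in high glucose (1.49 to 1.52). A factor applied to a whole library leaves these ratios as they are. The intervals of the ratios do not overlap, but they hold no variation between cultures.

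**Figure D3:**
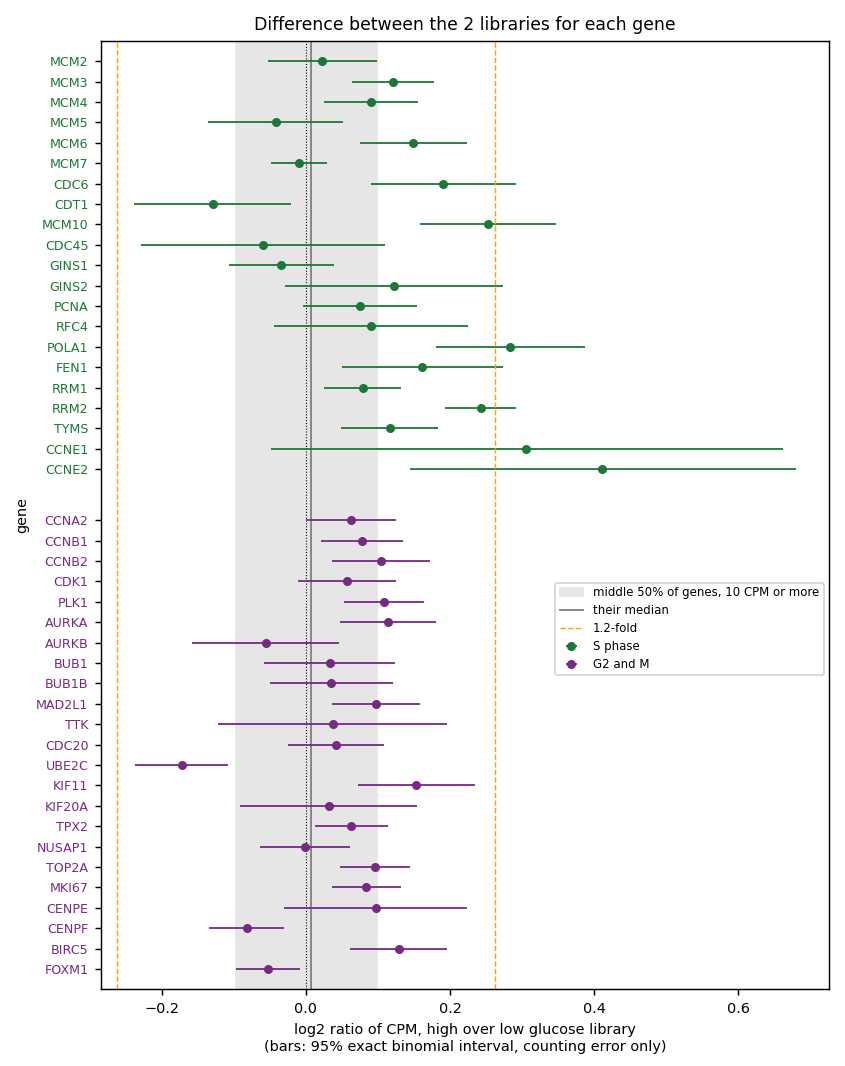
Log2 ratio of CPM, high over low glucose, for each gene with its 95% exact binomial interval (counting error only); the grey band spans the middle 50% of genes averaging 10 CPM or more and dashed lines mark 1.2-fold. The S phase genes reach from -0.13 to 0.41, and the G2 and M genes stay between -0.17 and 0.15.

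Among the S phase genes, the helicase subunits did not differ alike. MCM3 was at 229 CPM for low and 248.6 CPM for high glucose, a log2 ratio of 0.12 (0.06 to 0.18). MCM6 was at 135 and 150 CPM, a log2 ratio of 0.15 (0.07 to 0.22), and MCM4 at 178 and 189 CPM, a log2 ratio of 0.09 (0.02 to 0.16). For MCM2, at 137 and 139 CPM, MCM5, at 91.1 and 88.5 CPM, and MCM7, at 520 and 517 CPM, the interval of the log2 ratio included 0. These subunits had the higher GC content, at 58.1%, 56.6% and 57.6%, against 51.6% for MCM3, 43.1% for MCM6 and 48.5% for MCM4. With the trend in GC content and length removed, the subunits lay closer together. MCM3, MCM6 and MCM4 then had log2 ratios of 0.11, 0.11 and 0.07, and MCM2, MCM5 and MCM7 0.05, -0.03 and 0.01.

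The licensing and activation factors went both ways. MCM10 (chromosome 10 of GRCh38, 13161554 to 13211104, plus strand), which helps the loaded helicase to start, was at 81.3 CPM in low and 96.9 CPM in high glucose, a log2 ratio of 0.25 (0.16 to 0.35). CDC6 (chromosome 17, 40287633 to 40304657, plus strand) was at 73.2 and 83.6 CPM, a log2 ratio of 0.19 (0.09 to 0.29). CDT1 (chromosome 16, 88803213 to 88809258, plus strand), which acts with CDC6 in licensing, was lower in high glucose, at 69.8 and 63.9 CPM, with a log2 ratio of -0.13 (-0.24 to -0.02). CDC45 (chromosome 22, 19479459 to 19520612, plus strand) was at 28.7 and 27.6 CPM, and its log2 ratio of -0.06 had an interval from -0.23 to 0.11. The intervals of GINS1, at 150 and 146 CPM, and GINS2, at 33.3 and 36.3 CPM, also included 0. With a trend in GC content and transcript length removed, described further on, the log2 ratio of CDT1 was -0.05 and that of CDC6 0.16.

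The genes of the fork and of deoxynucleotide supply came next. POLA1 (chromosome X, 24693919 to 24996986, plus strand) stood at 67.3 CPM for low and 81.9 CPM for high glucose, a log2 ratio of 0.28 (0.18 to 0.39), above 97.6% of the genes averaging 10 CPM or more. FEN1, the flap nuclease of the lagging strand, was at 59.9 and 67.0 CPM, a log2 ratio of 0.16 (0.05 to 0.27). PCNA, at 124 and 131 CPM, and RFC4, at 42.9 and 45.7 CPM, had intervals that included 0. RRM2 (chromosome 2, 10120698 to 10131419, plus strand) was at 300 and 355 CPM, a log2 ratio of 0.24 (0.19 to 0.29). Its partner RRM1 was at 267 and 281 CPM, a log2 ratio of 0.08 (0.02 to 0.13), so that the intervals of the subunits did not overlap. TYMS was at 167 and 181 CPM, a log2 ratio of 0.12 (0.05 to 0.18), but 39.1% of its exon bases overlap ENOSF1 on the other strand, and the library kit does not mark strand.

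The cyclin E genes, which with CDK2 start S phase, had the largest log2 ratios and the fewest counts. CCNE2 (chromosome 8, 94879770 to 94896678, minus strand) rested on 214 and 256 estimated counts and stood at 9.87 CPM for low and 13.1 CPM for high glucose, a log2 ratio of 0.41 (0.14 to 0.68). Of its exon bases, 37.0% overlap INTS8 on the other strand, which had deposited values of 29.5 and 33.4 CPM, and the share of CCNE2 reads that come from INTS8 was not tested. CCNE1 was at 5.90 and 7.30 CPM, and its log2 ratio of 0.31 had an interval from -0.05 to 0.66. A difference in CCNE1 was therefore not detectable at this depth. In all, 16 of the 44 genes share exon bases with another annotated gene. The largest shares beside TYMS and CCNE2 were 62.2% in NUSAP1, with AC087721.2, 22.7% in MCM2, with AC023593.1, 20.2% in RRM2, with AC007240.1, and 15.9% in FOXM1, with ITFG2. Without the 16 genes the median log2 ratio was 0.11 for S phase and 0.07 for G2 and M.

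The G2 and M genes were more uniform. Of the cyclins and CDK1, CCNA2 was at 196 and 205 CPM, CCNB1 at 234 and 247 CPM, CCNB2 at 163 and 175 CPM, and CDK1 at 169 and 176 CPM. Their log2 ratios were 0.06, 0.08, 0.10 and 0.06, and the interval excluded 0 for CCNB1 and CCNB2 only. With the trend in GC content and length removed these ratios were 0.03, 0.05, 0.08 and 0.03, where the median of all genes was 0.02. PLK1, a kinase of mitotic entry and spindle assembly, was at 242 and 260 CPM, a log2 ratio of 0.11 (0.05 to 0.16). AURKA, the kinase of the spindle poles, was at 170 and 184 CPM, also a log2 ratio of 0.11 (0.05 to 0.18). AURKB (chromosome 17, 8204733 to 8210600, minus strand), the kinase of the chromosomal passenger complex, was at 77.3 and 74.3 CPM, and its interval of -0.16 to 0.05 included 0. BIRC5, which encodes survivin of the same complex, was at 167 and 183 CPM, a log2 ratio of 0.13 (0.06 to 0.20).

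Of the spindle checkpoint, MAD2L1 was at 203 and 217 CPM, a log2 ratio of 0.10 (0.04 to 0.16). The intervals of BUB1, at 93.9 and 96.1 CPM, BUB1B, at 106 and 109 CPM, and TTK, at 31.3 and 32.1 CPM, included 0. Among spindle genes, KIF11, the motor that separates the poles, was at 113 and 126 CPM, a log2 ratio of 0.15 (0.07 to 0.23), the largest of the G2 and M list. TPX2 was at 295 and 308 CPM, a log2 ratio of 0.06 (0.01 to 0.11), whereas the intervals of KIF20A, at 52.1 and 53.2 CPM, and NUSAP1, at 203 CPM in both libraries, included 0. The proliferation marker MKI67, which coats mitotic chromosomes, was at 327 and 347 CPM, a log2 ratio of 0.08 (0.04 to 0.13). TOP2A, the topoisomerase that untangles sister chromatids, was at 328 and 350 CPM, a log2 ratio of 0.10 (0.05 to 0.14). CENPE, at 47.6 and 50.9 CPM, had an interval of -0.03 to 0.22.

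In the G2 and M list, 3 of 23 genes had intervals below 0, where 18.0% of all genes averaging 10 CPM or more did, so that their number is not above the background. UBE2C (chromosome 20, 45812576 to 45816957, plus strand) stood at 205 CPM for low and 182 CPM for high glucose, a log2 ratio of -0.17 (-0.24 to -0.11). CENPF (chromosome 1, 214603195 to 214664588, plus strand), a large kinetochore protein, was at 297 and 281 CPM, a log2 ratio of -0.08 (-0.13 to -0.03). FOXM1 was at 411 and 396 CPM, a log2 ratio of -0.05 (-0.10 to -0.01). CDC20, which acts on the same complex as UBE2C, was at 177 and 182 CPM, and its interval of -0.02 to 0.11 included 0. UBE2C has 4 annotated processed pseudogenes, none with a value in the table, and reads that match more than 1 of these copies were divided by estimate.

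**Figure D4:**
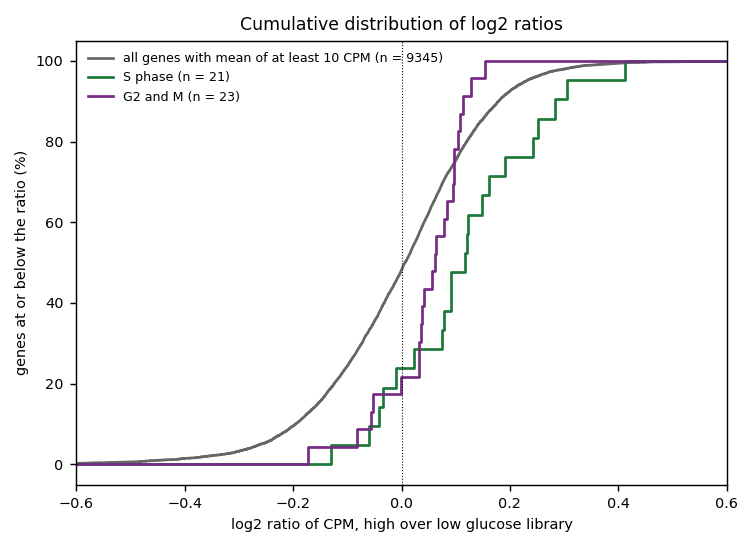
Share of genes (%) at or below each log2 ratio, for all 9345 genes averaging 10 CPM or more (grey), the 21 S phase genes (green) and the 23 G2 and M genes (purple). Both curves lie to the right of the grey curve over most of the range, and the S phase curve extends further to the right, to 0.41.

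The base composition of the transcripts moved with the log2 ratio across the whole table. Among the 8943 genes averaging 10 CPM or more and with an annotated transcript, the median log2 ratio was 0.04 in the 1520 genes with under 40% GC and -0.07 in the 1214 genes with at least 60% GC. Pearson's r across these genes, which share both libraries and are not independent replicates, was -0.24 between GC content and log2 ratio, with a Spearman's rho of -0.25. Over the 44 genes r was -0.35 and rho -0.21. Of the 44 genes, all 6 with under 40% GC and all 11 with 45 to 50% GC were higher in high glucose, as were 10 of 13 with 40 to 45%, 4 of 6 with 50 to 55% and 3 of 7 with 55 to 60%. The share of all genes that was higher was not counted in these ranges. Their median log2 ratio was 0.04 under 40% GC, 0.04 from 40%, 0.03 from 45%, -2.8e-05 from 50% and -0.03 from 55%. CDT1, with 64.9% GC, was lower. When a trend with GC content and transcript length was fitted to all these genes and removed, the median of the S phase genes was 0.10 over the 20 genes averaging 10 CPM or more, against 0.02 for all genes, and 16 of these 20 were above 0. The median of the G2 and M genes was 0.03, or 0.02 above all genes, where it had been 0.06 above them, and 16 of 23 were above 0. The share of all genes above 0 after this step was 54.7%. MCM10, POLA1 and RRM2 then had log2 ratios of 0.22, 0.25 and 0.21, which puts POLA1 under 1.2-fold, and UBE2C had -0.10. The sign changed for 5 genes whose intervals included 0: MCM7 went to 0.01, AURKB to 0.01, and BUB1, BUB1B and TTK to -0.007, -0.003 and -0.004.

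**Figure D5:**
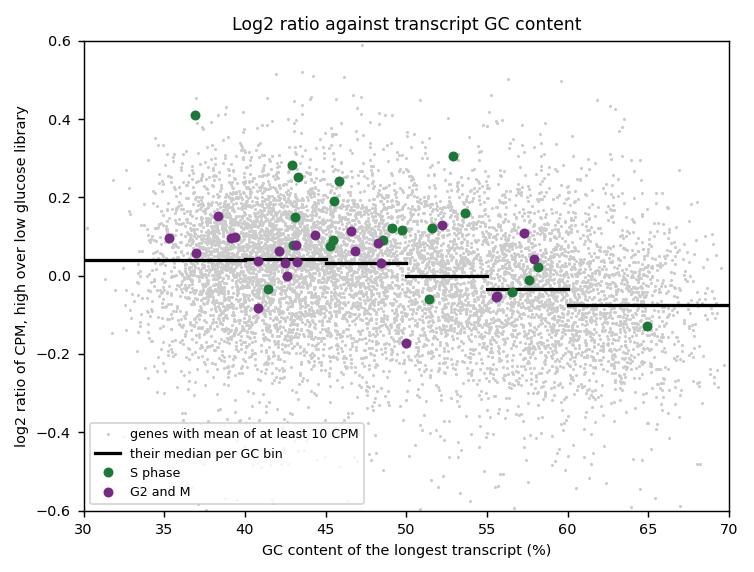
Log2 ratio of CPM, high over low glucose, against the GC content of the longest transcript (%), for genes averaging 10 CPM or more (grey points, black lines for the median in each GC bin), S phase genes (green) and G2 and M genes (purple). The black lines step down from 0.04 under 40% GC to -0.07 from 60% GC, and most of the coloured points lie above them.

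Further genes of the same processes were read from wider lists. In the list of other replication genes, 30 of 44 were higher in high glucose and 14 lower, with a median log2 ratio of 0.06, where 51.9% of all genes averaging 10 CPM or more were higher. The counting interval lay above 0 for 11 and below 0 for 4, where it did so for 20.4% and 18.0% of those genes. Of these, 3 were at least 1.2-fold higher and 0 that much lower, against 3.2% and 4.82% of all genes averaging 10 CPM or more, as all 44 did. POLA2, the partner of POLA1, was at 47.0 and 58.5 CPM, a log2 ratio of 0.31 (0.19 to 0.44). POLE2, a subunit of polymerase epsilon, was at 22.3 and 27.8 CPM, a log2 ratio of 0.32 (0.14 to 0.50), and GINS4 was at 11.9 and 14.5 CPM, a log2 ratio of 0.28 (0.03 to 0.53). The primase genes that complete the polymerase alpha complex were not alike, with PRIM1 at 22.6 and 20.0 CPM and PRIM2 at 23.3 and 26.0 CPM, both with intervals that included 0. POLD1, the catalytic subunit of polymerase delta, had a log2 ratio of -0.14 (-0.26 to -0.01) and POLE, that of polymerase epsilon, -0.06 with an interval that included 0. With the trend in GC content and length removed, the ratio was -0.06 for POLD1, whose transcript has 65.0% GC, and -0.03 for POLE. RPA3, a subunit of the single-strand binding protein, was at 110 and 98.3 CPM, a log2 ratio of -0.16 (-0.25 to -0.07). The subunits RPA1 and RPA2 of that protein went the other way, with log2 ratios of 0.16 (0.10 to 0.22) and 0.11 (0.005 to 0.21). ORC3, at 22.6 and 20.4 CPM, had an interval that included 0.

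In the list of other mitosis genes, 64 of 65 had a value, 42 were higher in high glucose and 22 lower, and the median log2 ratio was 0.05. The counting interval lay above 0 for 25 and below 0 for 5, against 20.4% and 18.0% of all genes averaging 10 CPM or more. None was past 1.2-fold in either direction, and all 64 averaged 10 CPM or more, where 3.2% of all genes were that much higher, 4.82% that much lower and 51.9% higher by any amount. The highest ratios were 0.25 for CDCA2 (0.08 to 0.41), 0.24 for SGO2 (0.10 to 0.37), a protector of centromere cohesion, and 0.20 for DLGAP5 (0.11 to 0.30), a spindle protein. The lowest were -0.24 for TROAP (-0.36 to -0.13), -0.23 for the kinesin gene KIF18B (-0.37 to -0.10) and -0.19 for SPC24, whose interval of -0.38 to 0.00 included 0. With the trend in GC content and length removed, the median of these mitosis genes went from 0.054 to 0.048, and 40 were above 0. That of the other replication genes went from 0.056 to 0.040, with 29 of 44 above 0. The fall from 0.06 to 0.03 in the 23 G2 and M genes was thus not matched in this wider mitosis list.

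Upstream of S phase, the genes of the G1 list differed in both directions. CDK6 was at 121 CPM in low and 90.1 CPM in high glucose, a log2 ratio of -0.42 (-0.51 to -0.33), and CDK4 at 455 and 391 CPM, a log2 ratio of -0.22 (-0.26 to -0.18). CDK2, the partner of cyclin E, was at 85.4 and 97.5 CPM, a log2 ratio of 0.19 (0.10 to 0.28). CCND1, which partners CDK4 and CDK6, was at 585 and 652 CPM, a log2 ratio of 0.16 (0.12 to 0.19); it lies outside the naming rule and was chosen after its values were seen. Of the E2F factors, E2F7 was at 15.0 and 19.8 CPM, a log2 ratio of 0.40 (0.18 to 0.61), E2F2 at 37.6 and 43.2 CPM, a log2 ratio of 0.20 (0.06 to 0.34), and E2F4, at 70.3 and 66.4 CPM, had an interval that included 0. Over this list of 20 genes, 18 averaged 1 CPM or more, and of those 13 were higher and 5 lower, with a median of 0.08, where 51.9% of all genes averaging 10 CPM or more, as all 18 did, were higher. The counting interval lay above 0 for 7 of the 18 and below 0 for 2, against 20.4% and 18.0% of all genes averaging 10 CPM or more.

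Genes that restrain the cycle were read last. Of 17 inhibitors and brakes averaging 1 CPM or more, 6 were higher in high glucose and 11 lower, with a median log2 ratio of -0.09, where 51.4% of all genes tested were lower. The counting interval lay below 0 for 6 of them and above 0 for none, against 15.9% and 15.8% of all genes tested. CCNG2, an atypical cyclin linked to arrest, was at 35.9 and 25.7 CPM, a log2 ratio of -0.48 (-0.64 to -0.32). GADD45A, a stress-induced growth arrest gene, was at 35.0 and 26.5 CPM, a log2 ratio of -0.40 (-0.57 to -0.24). CDKN1B, which encodes the CDK inhibitor p27, was at 119 and 101 CPM, a log2 ratio of -0.23 (-0.31 to -0.14). RBL1, CDKN3 and CDKN2D had the highest ratios of this list among genes averaging 10 CPM or more, at 0.05, 0.08 and 0.16, all with intervals that included 0. After removal of the trend with GC content and length, CCNG2, GADD45A and CDKN1B had log2 ratios of -0.51, -0.37 and -0.25. The median of the 14 genes of this list averaging 10 CPM or more went from -0.09 to -0.05.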

How the data were processed

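Per the labels and the study's methods, the authors trimmed reads with Trim Galore 0.5.0, aligned them with STAR 2.6.0 to GRCh38, estimated counts per gene with RSEM 1.3.1, removed genes with very low counts and normalized by TMM in edgeR. The deposited table holds CPM and log2 CPM of 2 libraries. Its further columns hold the authors' mean and their log2 difference and fold ratio of the libraries, and were not used. The CPM columns each sum to the same total once the prior is taken off, so that no TMM factor is visible in them. Unless named as deposited, CPM here are therefore the deposited values divided by TMM factors (0.998 low, 1.002 high) computed from recovered estimated counts. These counts came from the steps between low CPM values and a prior of 0.25 counts; 77.4% of values under 10 CPM in each library were within 0.1 of a whole count, as RSEM counts need not be whole. No count model was run. Python 3.11.15, numpy 2.4.6, pandas 2.3.3, scipy 1.17.1 and matplotlib 3.10.9 were used, and the calculations were tested on simulated data.

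Lists were described over genes averaging 1 CPM or more. Exon lengths, GC content, coordinates and overlaps came from GENCODE 29 on GRCh38, which holds 73.4% of the symbols and all 44 genes. The study names another release. The genes and lists were chosen with earlier results of these data known. All 44 genes were named. Of each wider list, the 3 highest and 3 lowest log2 ratios of those averaging 10 CPM or more were named. Other genes outside this rule (PRIM2, POLD1, POLE, RPA1, RPA2, CCND1) were chosen after their values were seen.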

Additional observations from a re-analysis of the deposited data

How the results depend on the processing

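Of 287 values recomputed under an alternative, 243 stayed within set limits, 44 moved, and 0 of those whose interval excluded 0 changed sign. The limit was the counting interval for single genes and sums, and 1.5 times the reported count for counts of genes. For list medians it was the counting half-width of the summed ratio (0.017 S phase, 0.013 G2 and M), which is not an interval of the median. For promoter shares, with only bases before the start as alternative, it was a binomial interval over promoters. This interval is wide, and a CHR share of 47.4% in place of 63.2% counted as staying. Library totals without TMM factors, median-of-ratios size factors, removal of the prior, a pseudocount of 1 CPM, and a minimum mean of 10 CPM or no minimum left the medians of both lists within these limits, as they did the counts of genes past the fold, with the S phase median between 0.10 and 0.12 and that of G2 and M between 0.06 and 0.07. Of single genes, NUSAP1, at a log2 ratio of -0.001, changed sign under another scaling. The number of genes past the fold followed the threshold by construction: at 1.1-fold 9 were higher and 1 lower, and at 1.5-fold 0 were higher. Removal of the trend with GC content and length, an alternative chosen after seeing the data, moved the G2 and M median from 0.06 to 0.033 and UBE2C from -0.17 to -0.10, and changed the sign of 5 genes (MCM7, AURKB, BUB1, BUB1B and TTK). The median of the S phase list was 0.11 over all 21 genes under that alternative. Without the 16 genes whose exons overlap another gene, also chosen after seeing the data, the medians were 0.11 and 0.07. The other 39 values that moved were levels per kb with the longest transcript as length. Depth limited CCNE1 most. Leaving out a library was not possible, since each concentration has 1. No paired analysis was possible because the design has a single library for low and for high glucose.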
